A study of Mus musculus with 13 samples.

Results

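Of 22667 genes in a deposited expression table of mouse cerebellum, 29 had a level in wild-type cerebella at postnatal day 10 (P10) that stood above both P1 and P30. The group was chosen by these levels. The mean of the 2 wild-type P10 libraries had to be at least 10 cRPKM, and the lower of them had to be at least 2 times the highest wild-type P1 or P30 library. cRPKM is reads per kilobase of transcript scaled to library depth (RPKM), corrected for the mappable length. Values were listed for 21553 genes, 6975 of them reached the minimum at P10, and the 29 are 0.135% of the genes with a value. A further 4 genes were left out because they were listed at 0 in 1 wild-type P10 library and in every wild-type P1 and P30 library, where a ratio cannot be formed. The wild-type contrasts of P10 with P1 and P30 therefore describe how the genes were picked, and no test is attached to them.

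The libraries were made from total RNA of whole cerebella of mice on the C57BL/6 background, with a modified stranded mRNA kit. Wild-type cerebella were taken at P1 (2 libraries), P10 (2 libraries) and P30 (3 libraries). Cerebella of mice lacking Sam68, the RNA-binding splicing regulator encoded by Khdrbs1, were taken at P1 (3 libraries) and P10 (3 libraries), and no knockout P30 library was analysed here. The labels do not say whether libraries came from separate animals, so p-values measure only the spread between these libraries. The knockout libraries took no part in the choice of genes and served as a separate look at the rise from P1 to P10. The test of that rise took its spread from all 13 libraries, those of the rule included. Its p-values are therefore not fully separate from the choice.

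The mouse cerebellum matures largely after birth. Granule cell precursors divide in the external layer, and their daughters leave the cell cycle, grow axons and migrate inward past the fibres of Bergmann glia. Over the same weeks astrocytes mature, and oligodendrocyte precursors pass through a short premyelinating stage before they wrap axons, so that genes of passing stages can be high in the juvenile tissue only.

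Library depth differed. The steps between low values showed that 0.0957 to 4.09 M reads per library lay behind the cRPKM. Reads that spliced across annotated introns, taken from the deposited splicing table, numbered 17.6 to 29.7 M per library, and served as a second, deeper measure of the same RNA. Khdrbs1 itself lay at 29.5 to 74.4 cRPKM in the 7 wild-type libraries and at 1.28 to 8.50 cRPKM in the 6 knockout libraries, with no overlap. In bulk tissue, fewer cells of a type and less RNA per cell cannot be told apart.

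**Figure D1:**
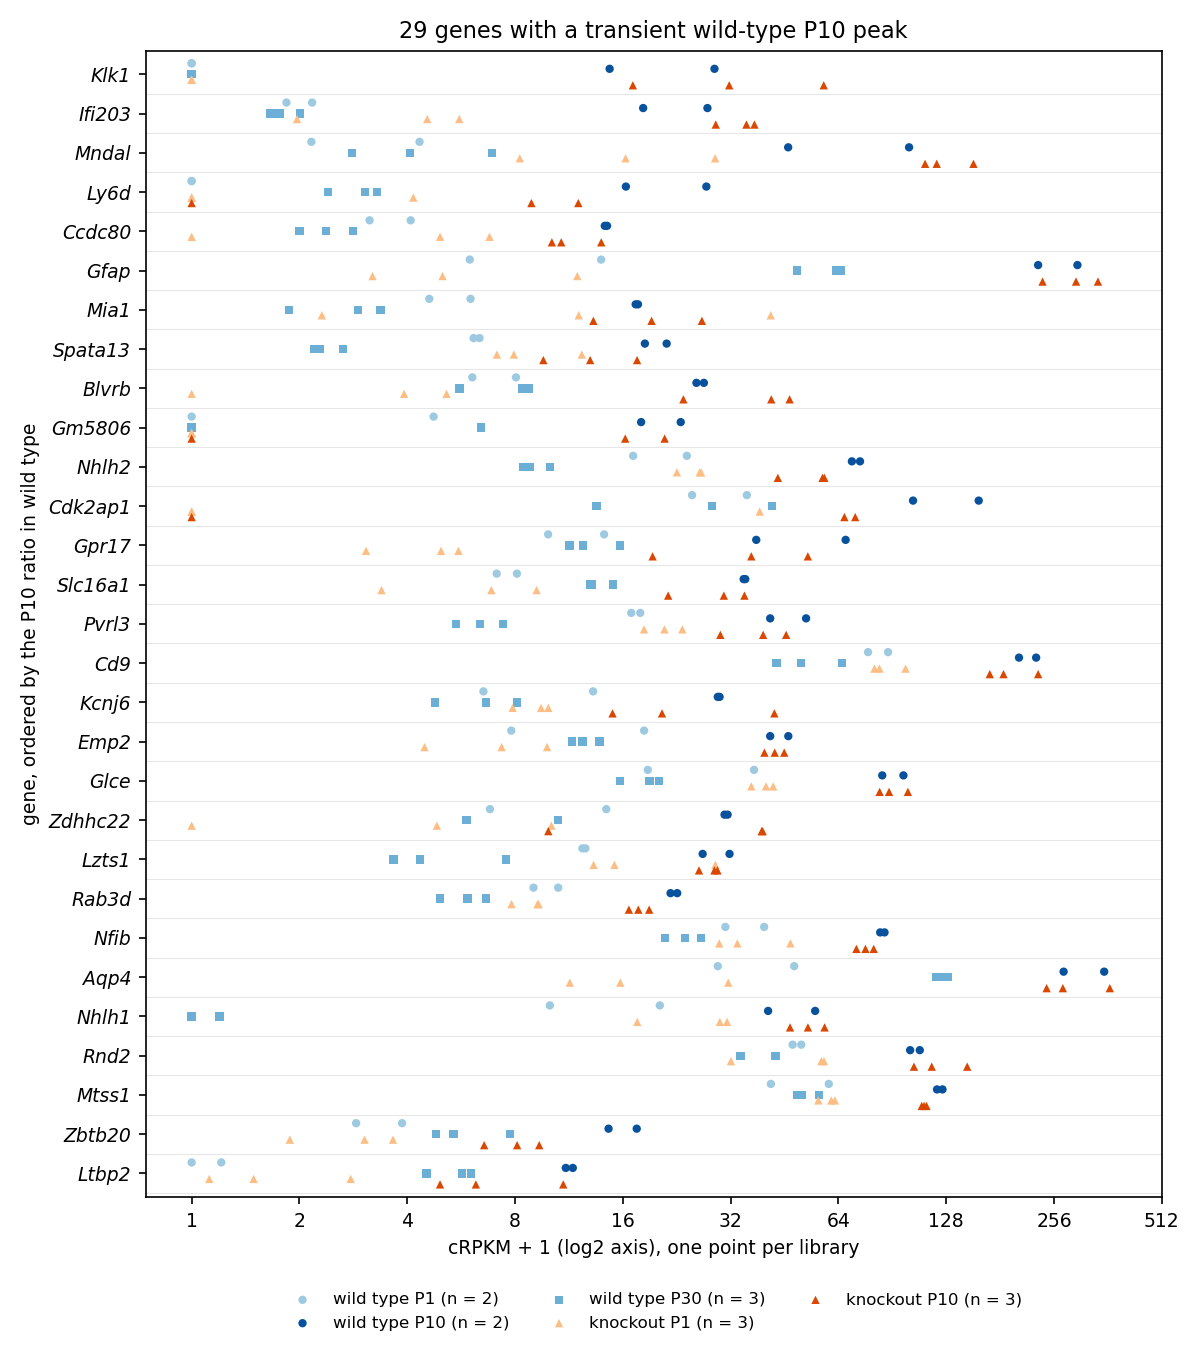
Expression of the 29 genes in each of the 13 libraries, as cRPKM + 1 on a log2 axis, with genes ordered from the highest to the lowest ratio of the lower wild-type P10 library to the highest wild-type P1 or P30 library. Dark blue circles (wild-type P10) lie to the right of light blue circles (P1) and squares (P30) by the rule, and dark orange triangles (knockout P10) lie near them for most genes, with Zbtb20, Ly6d and Cdk2ap1 to their left.

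In knockout cerebella the genes were again higher at P10 than at P1. By limma on log2(cRPKM + 1), with adjustment over all 14063 genes tested, 22 of the 29 genes were higher at knockout P10 than at knockout P1 and 0 were lower, where 5.58% of all tested genes were higher. All 29 estimates were above 0, with a median log2 difference of 1.56 against 0.04 over all tested genes. In 22 genes the lowest knockout P10 library lay above the highest knockout P1 library, against 17.3% of the genes with a wild-type P10 mean of at least 10 cRPKM. In 12 genes it was at least 2 times as high, against 2.28% of those genes and 2.15% of all tested genes.

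The deeper junction reads gave calls for genes that the shallow expression table left uncertain. Of the 29 genes, 27 had reads over annotated introns, and 26 of these were higher at knockout P10 than at knockout P1 by limma with adjustment over 12796 genes, where 18.1% of all tested genes were higher. The exception was Zbtb20, with a log2 difference of 0.57 ± 0.48 (SE) and an adjusted p of 0.377. The median log2 difference was 1.79 over the 27 genes and 0.00 over all tested genes. Of these 27 genes, 19 had the 2-fold ratio of the rule in junction reads of the same wild-type libraries. Aqp4, Ltbp2, Mtss1, Nhlh1, Pvrl3, Rab3d, Rnd2 and Zdhhc22 fell short, with ratios from 1.43 to 1.94. The share of all genes with that ratio was not worked out.

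**Figure D2:**
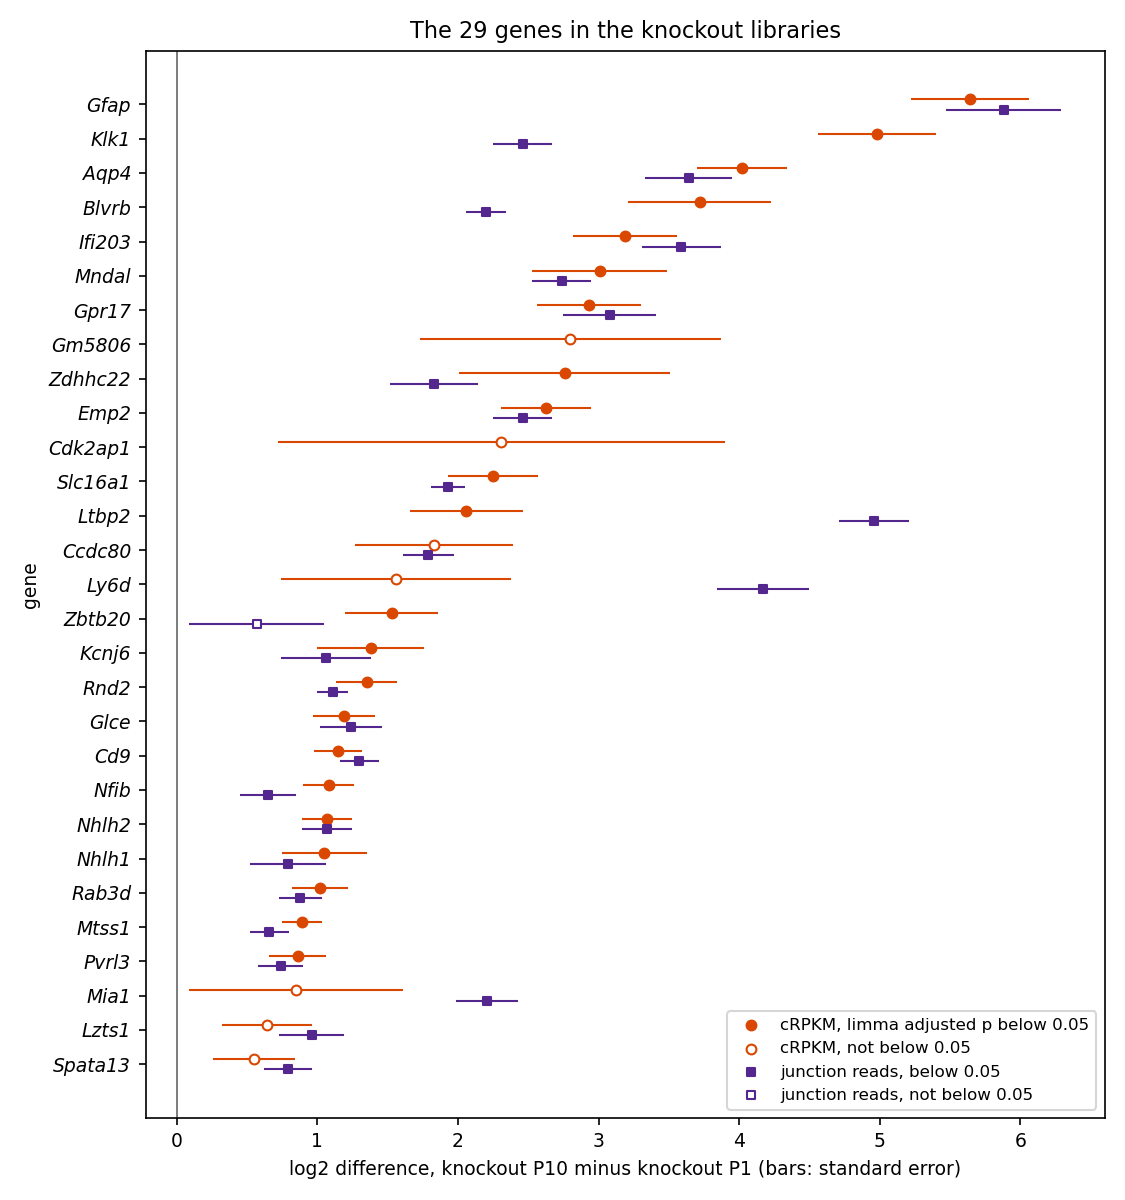
Log2 difference between knockout P10 and knockout P1 for each of the 29 genes, with standard errors, from cRPKM (orange circles) and from junction reads (purple squares). Filled symbols have a limma adjusted p below 0.05. Gm5806 and Cdk2ap1 have no square, and all points lie to the right of 0, from 0.55 for Spata13 to 5.64 for Gfap in cRPKM.

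The genes with the largest P10 ratio that were not at 0 elsewhere were Ifi203 and Mndal, neighbouring members of the Ifi200 family. These genes encode nuclear DNA-binding proteins of the innate immune system, with HIN domains, and are classically induced by interferon. Mndal stood at 3.33 and 1.16 cRPKM in wild type at P1, at 45.3 and 99.8 at P10, and at 1.81, 5.89 and 3.08 at P30. In the knockout it stood at 15.3, 7.25 and 27.97 cRPKM at P1 and at 119, 152 and 111 at P10. In cRPKM the P10 libraries of both genotypes lay above every other library. The knockout libraries lay above the wild-type libraries of the same age. At P1 that order rests on 4, 8 and 2 reads in the knockout and 4 and 1 in wild type. In depth-scaled junction reads the genotypes overlapped at P1, with 0.729, 0.517 and 0.29 per M in the knockout and 0.341 and 0.255 in wild type.

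The knockout rise of Mndal from P1 to P10 was 3.01 ± 0.48 on the log2 scale (SE, n = 3 and 3), with a limma adjusted p of 0.00219. Its junction reads, from 1 intron, counted 17, 11 and 6 in knockout P1 and 139, 139 and 118 in knockout P10. In wild type they counted 6 and 6 at P1, 91 and 122 at P10, and 5, 2 and 2 at P30.

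Ifi203 followed the same course. It stood at 0.84 and 1.17 cRPKM in wild type at P1, at 17.2 and 26.6 at P10, and at 0.76, 0.66 and 1.01 at P30. The knockout libraries gave 0.97, 4.59 and 3.55 at P1 and 36.3, 34.4 and 28.1 at P10. The groups of the 2 ages did not overlap in the knockout, and the log2 difference of 3.19 ± 0.37 (SE) had a limma adjusted p of 0.000327. Its junction reads, from 1 intron, counted 17 and 19 at wild-type P1, 492 and 950 at P10, and 20, 35 and 14 at P30, and in the knockout 58, 48 and 43 at P1 and 679, 511 and 1009 at P10. Mndal was the higher of the pair in cRPKM at P10 and Ifi203 in junction reads, so their order depends on the measure.

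Other genes of the family stayed low. Of 18 Ifi200 family genes listed, 10 were in the table, 2 of them were at 0 in every library, and apart from Mndal and Ifi203 none exceeded 6.11 cRPKM. That highest value belonged to Mnda, which was at 0 at P1 and P10 and at 5.63, 6.11 and 4.11 cRPKM in wild type at P30. Of 31 tested interferon response genes, such as Isg15 and Stat2, 0 rose and 0 fell between wild-type P1 and P10 by limma, against 2.20% and 1.85% of all genes. In junction reads 3 of 23 rose and 2 fell, against 13.2% and 14.2% of all genes. Between P10 and P30, 1 of the 31 rose in cRPKM, against 5.02% of all genes. In junction reads 13 of the 23 rose and 2 fell over that step, against 16.8% and 31.8%.

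The windows before the annotated starts of Mndal and Ifi203 are nearly the same sequence, so they are shown in full. In the RefSeq gene order, Ifi211 is the only protein-coding gene between them. The 300-base windows around the starts, aligned with free ends, matched at 282 of 299 columns (94.3%), with 7 mismatches and 10 gapped columns, and the longest run without a difference was 139 bases. These windows lie mostly before the starts, and the transcripts of the 2 genes were not compared. Whether reads were assigned to the wrong copy was not tested, so the split of counts between Mndal and Ifi203 is uncertain. The capitals mark the core of the interferon-stimulated response element, GAAA followed after any 2 bases by GAAA, searched on both strands. The match begins 36 bases before the start of Mndal (GRCm38.p6, chr1:173880188-173880437, minus strand) and 35 bases before that of Ifi203 (chr1:173942493-173942742, minus strand).
Mndal: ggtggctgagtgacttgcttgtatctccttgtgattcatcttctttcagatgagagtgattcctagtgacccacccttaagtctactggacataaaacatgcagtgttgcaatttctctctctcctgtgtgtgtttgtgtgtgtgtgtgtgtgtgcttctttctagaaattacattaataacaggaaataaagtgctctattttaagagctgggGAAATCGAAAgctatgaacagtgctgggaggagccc
Ifi203: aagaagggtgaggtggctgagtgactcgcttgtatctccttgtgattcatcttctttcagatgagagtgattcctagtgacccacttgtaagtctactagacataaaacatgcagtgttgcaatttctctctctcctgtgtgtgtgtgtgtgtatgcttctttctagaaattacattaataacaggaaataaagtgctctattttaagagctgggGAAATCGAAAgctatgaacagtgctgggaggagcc

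These letters were found in 3.44% of the 32851 windows of the RefSeq promoter table, and in 3.99% of its genes. Of the 29 genes, 20 had an entry in that table, and Mndal and Ifi203 were the 2 whose windows held them. As these windows are nearly the same sequence, the 2 matches are not separate occurrences. Other elements were searched too. CCAAT, like the others searched on both strands, was in 7 of them against 41.1% of the 27025 genes in the table, and TATAAA in 0 against 15.7%. TGACGTCA was in 0 against 2.03%, GGGTGGTC in 0 against 0.932% and the palindrome bound by nuclear factor I in 0 against 0.0444%. A match of letters is a description of the window, and no match says only that the letters are not there.

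Levels of microglial genes were also high at P10. The summed level of 21 microglia and macrophage genes was 112 to 137 cRPKM at wild-type P1, 217 to 224 at P10 and 128 to 155 at P30, and in the knockout 127 to 181 at P1 and 242 to 358 at P10. None of the 21 was at 0 in all libraries. By limma, 0 of 20 tested genes rose between wild-type P1 and P10, 1 fell between P10 and P30, and 5 rose between knockout P1 and P10. The shares of all genes were 2.20%, 9.73% and 5.58%. In junction reads, 7 of 19 rose and 0 fell between wild-type P1 and P10, against 13.2% and 14.2% of all genes. Between P10 and P30, 2 rose and 7 fell, against 16.8% and 31.8%, and 3 rose and then fell, against 3.39%. Between knockout P1 and P10, 15 rose, against 18.1%. Whether microglia had a part in the course of Mndal and Ifi203 was not tested.

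**Figure D3:**
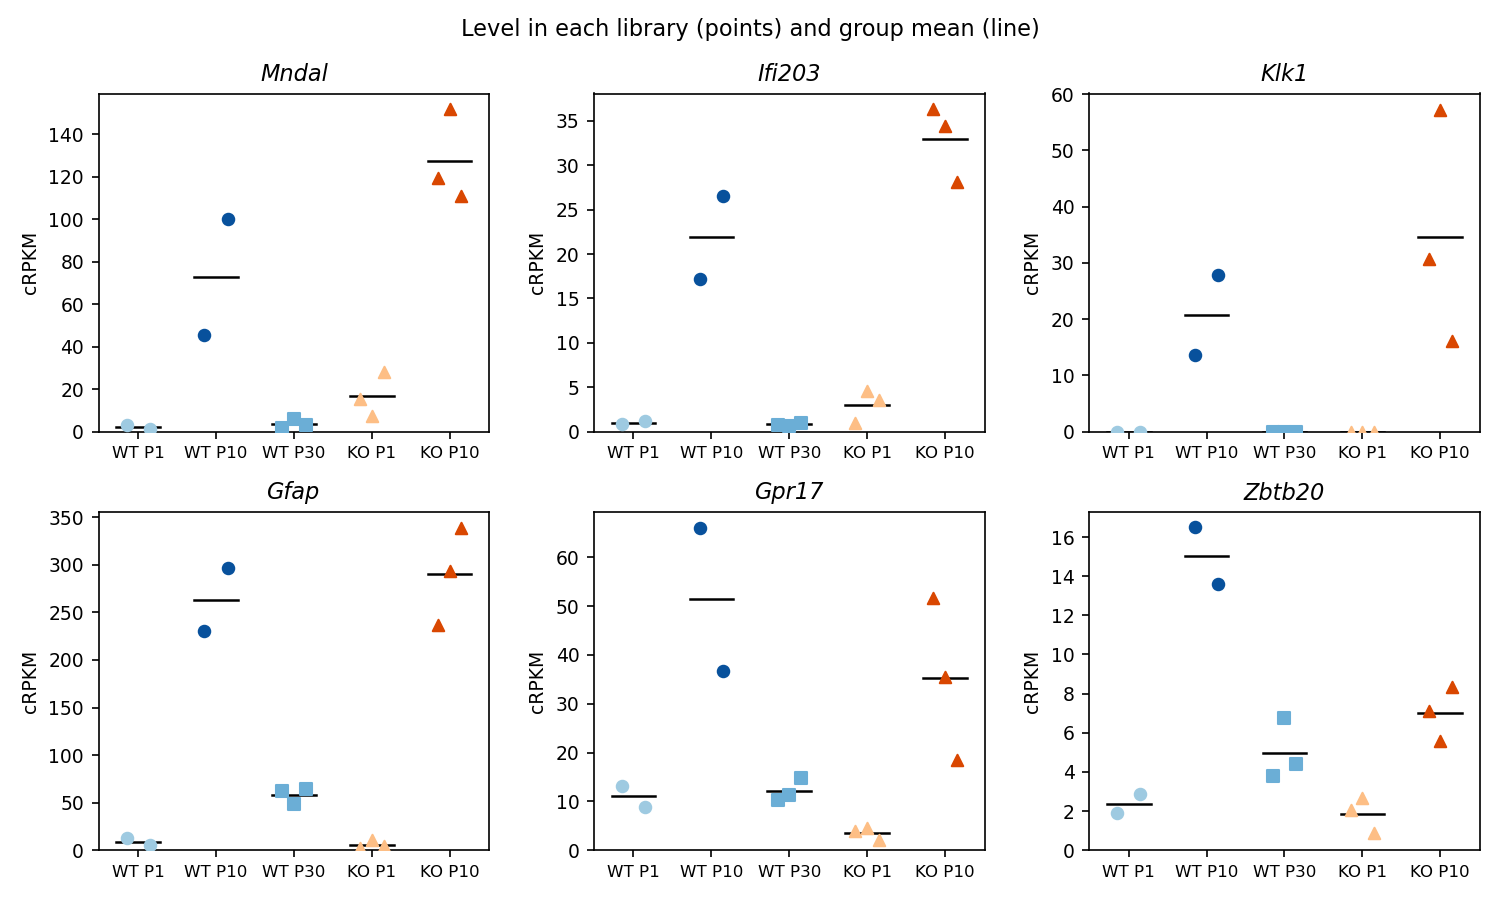
Levels of Mndal, Ifi203, Klk1, Gfap, Gpr17 and Zbtb20 in cRPKM in each library (points), with the group means (lines), on linear axes that start at 0. Wild-type libraries are blue and knockout libraries orange. Mndal and Ifi203 are highest at knockout P10, Klk1 is at 0 outside P10, and the knockout P10 libraries of Zbtb20 lie below its wild-type P10 libraries.

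Klk1, a tissue kallikrein that releases kinins from their precursors, was listed at 0 in every library outside P10. It stood at 13.7 and 27.9 cRPKM in wild type at P10 and at 30.7, 57.3 and 16.1 in knockout at P10. These values rest on few reads, worked out as 1 and 14 in wild type and 10, 5 and 1 in the knockout, over a mappable length of 206 bases. Reads over its intron numbered 47 and 77 at wild-type P10 and 55, 52 and 39 at knockout P10. The same intron had 0 reads in each knockout P1 library and in each wild-type P30 library, and 1 and 0 at wild-type P1.

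Against a floor of 3 reads over the whole group, Klk1 was at least 49.5-fold higher at knockout P10 than at knockout P1, where 65.3 M junction reads gave none. Mouse Klk1 has many near-identical family members, so its level is uncertain where reads could come from another copy.

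Gfap, Aqp4, Gpr17, Slc16a1, Cd9 and Emp2 are described next. Glia express them, though not all are confined to glia. All 6 were called higher at knockout P10 than at knockout P1 in both measures, against 5.58% of all tested genes in cRPKM and 18.1% in junction reads. Most of the whole group was called too, with 22 of 29 in cRPKM and 26 of 27 in junction reads. Gfap, the intermediate filament of astrocytes, stood at 12.9 and 4.98 cRPKM in wild type at P1, at 230 and 297 at P10 and at 62.2, 48.1 and 63.9 at P30. Knockout libraries went from 2.20, 10.9 and 4.02 at P1 to 237, 294 and 339 at P10, a log2 difference of 5.64 ± 0.42 (SE, limma adjusted p 1.33e-05). Its P30 libraries all lay above its P1 libraries, with no overlap.

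Aqp4, the water channel of astrocyte endfeet, had the same order of ages. It stood at 47.2 and 28.5 cRPKM in wild type at P1, at 271 and 353 at P10 and at 128.03, 125.65 and 119.06 at P30. In the knockout it went from 14.8, 30.5 and 10.4 to 270, 243 and 366, a log2 difference of 4.02 ± 0.32 (SE, limma adjusted p 2.14e-05). Other astrocyte and Bergmann glia genes were examined as a list. Of 23 tested besides Gfap and Aqp4, 1 rose and 2 fell between wild-type P1 and P10, against 2.20% and 1.85% of all genes. Between P10 and P30, 6 rose and 3 fell, against 5.02% and 9.73%, and 0 rose and then fell, against 0.363%. In junction reads 7 of 22 rose and 3 fell between P1 and P10, against 13.2% and 14.2%. Between P10 and P30, 9 rose and 5 fell, against 16.8% and 31.8%, and 0 rose and then fell, against 3.39%. The summed level of the 23 was 3447 to 4058 cRPKM at P1, 4549 to 4675 at P10 and 3691 to 4500 at P30 in wild type. In the knockout it was 2771 to 3298 at P1 and 4487 to 5491 at P10. The P10 sums lay above those of the other ages without overlap in either genotype.

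Gpr17, a receptor of the premyelinating oligodendrocyte stage, stood at 13.2 and 8.90 cRPKM in wild type at P1, at 66.1 and 36.7 at P10 and at 10.4, 11.4 and 14.7 at P30. Its knockout libraries gave 3.97, 4.56 and 2.07 at P1 and 51.6, 35.6 and 18.4 at P10, with a log2 difference of 2.93 ± 0.37 (SE, limma adjusted p 0.000587). The P1 and P30 libraries of wild type overlapped, and P10 stood above both.

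Other genes of newly formed oligodendrocytes were examined beside it. Of 29 tested, 7 rose and 0 fell between wild-type P1 and P10 by limma, against 2.20% and 1.85% of all genes. Between P10 and P30, 2 rose and 10 fell, against 5.02% and 9.73%. These contrasts share the P10 libraries. The median log2 differences were 0.81 and -0.64, against 0.01 and -0.13 over all tested genes. The 1 gene that passed in both directions was Sirt2, a deacetylase of oligodendrocytes, with means of 68.5, 159 and 101 cRPKM at P1, P10 and P30, where 0.363% of all tested genes did so. In junction reads 9 of 28 did so, where 3.39% of all genes did, among them Enpp6, Bmp4, Casr and Itpr2. Enpp6, a choline phosphodiesterase of the premyelinating stage, had means of 1.48, 22.3 and 10.3 cRPKM.

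Genes of mature myelin had another course. Of 22 tested, 12 rose and 0 fell between wild-type P1 and P10, against 2.20% and 1.85% of all genes. Between P10 and P30, 13 rose and 0 fell, against 5.02% and 9.73%. Mbp, the myelin basic protein, had means of 32.0, 1264 and 2774 cRPKM at the 3 ages.

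Slc16a1, the lactate transporter MCT1, was again intermediate at P30. It stood at 6.11 and 7.10 cRPKM in wild type at P1, at 34.2 and 33.8 at P10 and at 12.14, 14.02 and 11.95 at P30, and its knockout rise was 2.25 ± 0.32 on the log2 scale (SE, limma adjusted p 0.00123). The tetraspanin Cd9 stood at 76.5 and 87.1 cRPKM at P1, 203 and 227 at P10 and 42.0 to 64.5 at P30, and rose in the knockout by 1.15 ± 0.17 on the log2 scale (SE, limma adjusted p 0.00164). The membrane protein Emp2 stood at 17.4 and 6.81 cRPKM at P1, 45.4 and 40.3 at P10 and 10.5 to 12.8 at P30, and rose in the knockout by 2.63 ± 0.32 (SE, limma adjusted p 0.000459). Cd9 and Emp2 are made by several cell types, and Cd9 is on the list of early postnatal activated microglia. Of 15 other tested genes of that list, 0 rose between wild-type P1 and P10, against 2.20% of all genes. Between P10 and P30 3 fell, against 9.73%. In junction reads 5 of 12 rose and 0 fell between P1 and P10, against 13.2% and 14.2% of all genes. Between P10 and P30 0 rose and 7 fell, against 16.8% and 31.8%, and 3 rose and then fell, against 3.39%.

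Of the group, 4 genes encode transcription factors, and they differed in where they stood before and after P10. Nhlh1 and Nhlh2, basic helix-loop-helix factors of newborn neurons, belong to the early side. Nhlh1 stood at 9.01 and 19.3 cRPKM in wild type at P1, at 39.7 and 54.1 at P10 and at 0.19, 0.20 and 0.00 at P30. Nhlh2 stood at 16.1 and 23.2 at P1, at 68.8 and 72.6 at P10 and at 7.41, 9.02 and 7.82 at P30. For both genes every P1 library lay above every P30 library, and Nhlh1 was close to 0 at P30.

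In the knockout, Nhlh1 went from 16.6, 28.9 and 30.3 cRPKM at P1 to 51.6, 45.9 and 57.6 at P10, and Nhlh2 from 25.2, 21.7 and 25.5 to 57.5, 56.8 and 42.4. The log2 differences were 1.05 ± 0.30 for Nhlh1 (SE, limma adjusted p 0.0435) and 1.07 ± 0.18 for Nhlh2 (SE, limma adjusted p 0.00325). The call of Nhlh1 was lost in 4 of the 6 fits that left out 1 knockout library, with an adjusted p of up to 0.116, and that of Nhlh2 was lost in 0 of 6.

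Unlike Mndal and Ifi203, the windows before the starts of this related pair are not alike, and the longest run they share is 9 bases. They are shown for that contrast, with CCAAT on either strand in capitals, which occurs in 37.4% of all windows. The Nhlh1 window lies at chr1:172057597-172057846 on the minus strand and the Nhlh2 window at chr3:102009895-102010144 on the plus strand (GRCm38.p6).
Nhlh1: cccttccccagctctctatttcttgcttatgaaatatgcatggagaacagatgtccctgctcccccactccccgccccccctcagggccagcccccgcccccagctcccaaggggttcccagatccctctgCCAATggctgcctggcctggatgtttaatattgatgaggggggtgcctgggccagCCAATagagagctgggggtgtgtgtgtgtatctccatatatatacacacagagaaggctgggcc
Nhlh2: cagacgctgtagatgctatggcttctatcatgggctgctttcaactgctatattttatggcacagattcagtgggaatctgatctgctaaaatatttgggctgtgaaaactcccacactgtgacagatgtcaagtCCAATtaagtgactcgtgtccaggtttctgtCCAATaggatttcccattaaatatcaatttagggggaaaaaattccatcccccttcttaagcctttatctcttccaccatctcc

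Nfib, a nuclear factor I protein active in granule neuron and glial differentiation, stood at 29.9 and 38.7 cRPKM in wild type at P1, at 85.1 and 82.7 at P10 and at 19.98, 25.49 and 22.87 at P30. Knockout libraries went from 32.4, 46.0 and 28.8 to 75.2, 70.9 and 79.3 (log2 difference 1.08 ± 0.18, SE, limma adjusted p 0.00302). Its relatives Nfia and Nfix rose and then fell by limma without reaching the 2-fold rule. Nfia had means of 12.8, 29.1 and 12.5 cRPKM at wild-type P1, P10 and P30, with adjusted p-values of 0.0195 for the rise and 0.00383 for the fall. Nfix had means of 35.1, 96.4 and 47.4, with adjusted p-values of 0.0346 and 0.0470.

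These relatives were on the list of postmitotic and migrating granule cells, which holds Nhlh1, Nhlh2, Nfib and Rnd2 as well. Of the 35 other tested genes, 6 rose and 5 fell between wild-type P1 and P10, against 2.20% and 1.85% of all genes. Between P10 and P30, 1 rose and 21 fell, against 5.02% and 9.73%. Of the 35, 4 rose and then fell, against 0.363%. Besides Nfia and Nfix these were Cntn2, an adhesion protein of parallel fibres, and Plxna2, a semaphorin receptor. The median log2 difference of the 35 was 0.34 from P1 to P10 and -0.88 from P10 to P30. In junction reads 10 of 30 rose and 8 fell between P1 and P10, against 13.2% and 14.2% of all genes. Between P10 and P30, 0 rose and 24 fell, against 16.8% and 31.8%, and 7 rose and then fell, against 3.39%. The summed level of the 35 fell through the ages, from 8021 to 9078 cRPKM at P1 to 5071 to 5625 at P10 and 1996 to 2088 at P30.

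The lists for the stages before and after had other courses. Of 30 genes of dividing precursors, 0 rose between wild-type P1 and P10, against 2.20% of all genes. Between P10 and P30, 25 of the 30 fell, against 9.73%. Of 26 genes of mature granule cells, 14 rose between P1 and P10 and 19 rose between P10 and P30, against 2.20% and 5.02%. Gabra6, a receptor subunit of mature granule cells, had means of 0.310, 73.4 and 364 cRPKM at P1, P10 and P30.

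Zbtb20, a zinc finger repressor, was called in cRPKM but not in junction reads. It stood at 1.88 and 2.87 cRPKM in wild type at P1, at 16.5 and 13.6 at P10 and at 3.81, 6.76 and 4.39 at P30. In the knockout it went from 2.04, 2.65 and 0.88 at P1 to 7.11, 5.56 and 8.35 at P10, all below the wild-type P10 libraries. The cRPKM difference between the knockout ages was 1.53 ± 0.33 on the log2 scale (SE, limma adjusted p 0.0126, and 0.12 in a fit of only the groups compared). Its junction reads were uneven at knockout P10, with 83, 28 and 267 reads against 48, 60 and 66 at knockout P1, and the ages overlapped there.

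Genes of cell shape, adhesion and excitability made up 8 of the 29. All 8 were called higher at knockout P10 than at knockout P1 in junction reads and 6 in cRPKM, against 18.1% and 5.58% of all tested genes. In the whole group 26 of 27 and 22 of 29 were called, so the count is not particular to these 8. Mtss1, a membrane-bending regulator of actin, stood at 40.5 and 59.2 cRPKM in wild type at P1, at 124 and 120 at P10 and at 49.7, 55.5 and 48.0 at P30. Rnd2, a small GTPase of migrating neurons, stood at 46.7 and 49.4 at P1, at 107 and 101 at P10 and at 41.5, 33.1 and 41.8 at P30. Their knockout differences were 0.89 ± 0.14 for Mtss1 (SE, limma adjusted p 0.00219) and 1.35 ± 0.22 for Rnd2 (SE, limma adjusted p 0.00264).

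Pvrl3, the adhesion protein nectin-3, stood at 15.9 and 16.9 cRPKM in wild type at P1, at 40.3 and 51.0 at P10 and at 5.38, 6.41 and 4.48 at P30. Its knockout libraries went from 19.9, 22.5 and 17.3 to 44.74, 28.96 and 38.45, a log2 difference of 0.86 ± 0.20 (SE, limma adjusted p 0.0198, and 0.0841 without knockout P10 library 10). Kcnj6, a subunit of G protein-gated potassium channels, stood at 5.53 and 12.2 at P1, 28.8 and 28.5 at P10 and 3.79 to 7.12 at P30, and in the knockout at 6.88 to 8.91 at P1 and at 19.59, 13.98 and 41.41 at P10. Its knockout difference of 1.38 ± 0.38 (SE, limma adjusted p 0.0376) passed in 1 of the 6 fits that left out a knockout library, with adjusted p-values of up to 0.0979. The palmitoyltransferase-family gene Zdhhc22 stood at 30.4 and 29.8 cRPKM at wild-type P10 and, from 8 reads in the shallower of them, gave a knockout difference of 2.76 ± 0.75 (SE, limma adjusted p 0.0367) that passed in 2 of the 6.

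The secretory vesicle GTPase Rab3d stood at 9.56 and 8.01 cRPKM at wild-type P1, at 21.7 and 20.8 at P10 and at 3.94 to 5.64 at P30, with a knockout difference of 1.02 ± 0.20 (SE, limma adjusted p 0.00828). Spata13 and Lzts1 did not pass in cRPKM. Spata13, a guanine nucleotide exchange factor, stood at 5.37 and 5.13 cRPKM in wild type at P1, at 20.2 and 17.4 at P10 and at 1.28, 1.65 and 1.2 at P30, and in the knockout at 6.94, 6.12 and 11.29 at P1 and at 11.97, 8.60 and 16.54 at P10. Its log2 difference in the knockout was 0.55 with a 95% interval from -0.09 to 1.19 and a limma adjusted p of 0.256, while its junction reads gave 0.79 ± 0.17 (SE, adjusted p 0.00244). The leucine zipper gene Lzts1 stood at 11.3 and 11.6 cRPKM at wild-type P1, 25.7 and 30.8 at P10 and 2.66 to 6.56 at P30, and gave 0.64 ± 0.32 in cRPKM (SE, adjusted p 0.220) and 0.96 ± 0.23 in junction reads (SE, adjusted p 0.00396) by limma.

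Secreted and matrix genes, besides Klk1, included Ltbp2, a microfibril-associated protein, which had the smallest ratio in the group. It stood at 0.21 and 0.00 cRPKM in wild type at P1, at 10.1 and 10.6 at P10 and at 3.53, 5.04 and 4.70 at P30. Knockout libraries went from 0.49, 0.12 and 1.78 at P1 to 9.91, 5.22 and 3.94 at P10. Over its 34 introns the junction reads rose between the knockout ages by 4.96 ± 0.25 on the log2 scale (SE, limma adjusted p 2.61e-09), from 27, 59 and 41 reads to 1895, 1504 and 1379. The cRPKM difference was 2.06 ± 0.40 (SE, limma adjusted p 0.00720).

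Glce, the epimerase that makes iduronic acid in heparan sulfate, stood at 17.8 and 36.2 cRPKM in wild type at P1, at 83.9 and 96.2 at P10 and at 14.7 to 19.2 at P30. Its knockout libraries went from 35.6, 39.2 and 41.1 to 87.7, 82.5 and 99.1 (log2 difference 1.19 ± 0.22, SE, limma adjusted p 0.00495). The secreted proteins Ccdc80 and Mia1 did not pass in cRPKM. Ccdc80 stood at 3.09 and 2.14 at P1, 13.3 and 13.5 at P10 and 1.0 to 1.82 at P30 in wild type. In the knockout it stood at 3.94, 5.79 and 0.00 at P1 and 12.9, 9.77 and 9.14 at P10, without overlap (limma adjusted p 0.0590 in cRPKM and 2.45e-06 in junction reads). Mia1 stood at 16.4 and 16.6 cRPKM at wild-type P10 on 3 and 21 reads. Its knockout P1 libraries read 11.1, 1.31 and 40.4 on 2, 1 and 2 reads, and its junction reads rose in the knockout by 2.21 ± 0.22 (SE, limma adjusted p 2.06e-06).

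A list of 36 other matrix and adhesion genes had 34 that were tested, of which 2 rose and 0 fell between wild-type P1 and P10, and 1 rose and 9 fell between P10 and P30. The shares of all genes were 2.20% and 1.85% for the first step and 5.02% and 9.73% for the second. In junction reads 5 rose and 11 fell between P1 and P10, against 13.2% and 14.2% of all genes. Between P10 and P30, 3 rose and 20 fell, against 16.8% and 31.8%. The median log2 difference of this list from P1 to P10 was -0.53 in cRPKM.

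The remaining 4 genes were Ly6d, Blvrb, Cdk2ap1 and Gm5806. Ly6d, a lipid-anchored surface antigen best known from lymphocytes, was at 0 in both wild-type P1 libraries, at 26.4 and 15.3 cRPKM at P10 and at 1.40, 2.29 and 2.05 at P30. Its knockout values were 0.00, 3.16 and 0.00 at P1 and 7.89, 11.02 and 0.00 at P10 (limma adjusted p 0.248), on at most 8 reads per library. Its junction reads were 11, 21 and 5 at knockout P1 and 407, 504 and 276 at knockout P10, a log2 difference of 4.17 ± 0.33 (SE, limma adjusted p 2.47e-07), so the value of 0 in 1 knockout P10 library of the expression table came with 276 spliced reads.

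Blvrb, a biliverdin reductase, stood at 5.08 and 7.05 cRPKM at wild-type P1, 26.0 and 24.7 at P10 and 4.60, 7.74 and 7.39 at P30, and in the knockout at 0.00 to 4.15 at P1 and 22.6 to 45.8 at P10 (log2 difference 3.72 ± 0.51, SE, limma adjusted p 0.000952). Cdk2ap1, a binding partner of the kinase CDK2, and the predicted gene Gm5806 rest on mappable lengths of 36 and 166 bases and on 2 and 9 and on 1 and 9 reads at wild-type P10. Neither passed in the knockout, with limma adjusted p-values of 0.377 and 0.118, and the junction measure does not cover them.

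Read depth limits several values in the group. Of the 28 genes whose reads could be worked out, 7 had under 10 reads in a wild-type P10 library, namely Klk1, Gm5806, Cdk2ap1, Mia1, Ly6d, Zdhhc22 and Blvrb. Knockout P1 library 15 was the shallowest, with 0.0957 M reads behind its cRPKM, 11033 genes at 0 and 20.7 M junction reads. Its cRPKM rested on 1 read for Gfap, Ifi203, Gpr17 and Slc16a1, 2 for Mndal and Emp2, and 0 for Blvrb. Ltbp2 had 1 read in each knockout P1 library. Of the 22 genes called in the knockout, 18 were called in all 6 fits that left out 1 knockout library. The other 4 were Pvrl3, Kcnj6, Nhlh1 and Zdhhc22, the last with an adjusted p of up to 0.123. In a fit of only the groups compared 15 of the 22 were called. Besides those 4, Rab3d (limma adjusted p 0.0835), Ltbp2 (0.102) and Zbtb20 (0.12) lost their cRPKM call there.

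The genes arrived at the P10 level from different sides. In 11 of the 29 every wild-type P1 library lay above every P30 library, in 6 every P30 library lay above every P1 library, and in 12 the ages overlapped. Over all tested genes the first order held in 38.7% and the second in 26.3%. The first set held Nhlh1, Nhlh2, Nfib, Rnd2, Rab3d, Spata13, Pvrl3, Lzts1, Cd9, Ccdc80 and Mia1. The second set held Gfap, Aqp4, Slc16a1, Zbtb20, Ltbp2 and Ly6d. In junction reads the first order was found in 13 and the second in 6 of 27 genes, against 46.0% and 29.2% of all tested genes. The counts are near these shares. These orders use the libraries of the rule and are given without a test.

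At the edge of the rule, the members just inside were Mtss1, Zbtb20 and Ltbp2, with ratios of 2.02, 2.01 and 2.00. Just outside were 2610017I09Rik with 1.98, Prdm8, a histone methyltransferase-family gene, with 1.95, and Slc29a1, a nucleoside transporter, with 1.92. 2610017I09Rik stood at 4.17 and 0.00 cRPKM in wild type at P1, at 18.9 and 8.25 at P10 and at 0 in all P30 libraries. Its knockout libraries gave 0.00, 18.2 and 0.00 at P1 and 8.49, 0.00 and 0.00 at P10, with overlap. Prdm8 stood at 12.7 and 17.0 cRPKM in wild type at P1, at 39.9 and 33.3 at P10 and at 5.77 to 7.95 at P30, and at 33.7 to 39.5 at knockout P10. Slc29a1 stood at 17.2 and 40.6 at P1, 78.1 and 88.1 at P10 and 10.6 to 15.1 at P30, and at 88.6 to 109 at knockout P10.

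For knockout against wild type the 29 genes are given as values without a test, because the rule used the wild-type libraries. At P10, limma called 0.00711% of all genes lower and 0 higher in cRPKM. Of 14063 genes, 748 had an unadjusted p below 0.05. The median log2 difference between knockout and wild type was -0.16 over the 29 and -0.03 over all genes. At P1, limma called 0.0284% of all genes lower and 0.00711% higher, and 953 had an unadjusted p below 0.05. Because the rule asked for high wild-type P10 and low wild-type P1 values, the choice of genes favours a lower knockout at P10 and a higher knockout at P1. All knockout P10 libraries lay below all wild-type P10 libraries in 10 genes, above them in 2 and among them in 17. Over all tested genes the shares below and above were 10.4% and 8.59%.

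The 2 genes above were Mndal and Ifi203. Their log2 differences between knockout and wild type were 0.89 and 0.59 at P10, against the direction that the choice favours. At P1 they were 2.36 and 0.88, in the direction that the choice favours. In junction reads the differences of Mndal and Ifi203 were 0.64 and 0.42 at P10 and 0.32 and 1.0 at P1. Among the 10 below, Ly6d, Zbtb20 and Ltbp2 had differences of -2.16, -1.01 and -0.71 at P10, and in junction reads of -0.29, -1.40 and -0.19. For each of these genes the depth-scaled junction reads of the genotypes overlapped at P10. Zbtb20 stood at 3.79, 1.36 and 12.3 reads per M junction reads in knockout P10 libraries. Its wild-type P10 libraries stood at 11.3 and 12.4. In junction reads limma called 0.0156% of all genes lower in the knockout at P10 and 0.00781% at P1. The difference between the P1 and P10 effects of the knockout passed by limma for 2 of 14063 genes, and no test is attached to the group.

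The splicing table gave a measure that the rule did not use. For each event the authors gave PSI, the percent of transcripts that include a sequence. In the 29 genes 0 or 1 event passed in each age comparison. Between knockout P1 and P10, 43 events of 17 genes were tested and 0 passed a limma adjusted p below 0.05 with a change of at least 10 points, where 0.673% of all events did. At an unadjusted p below 0.05 there were 6 of the 43 (14%), against 11.1% of all events. Between wild-type P1 and P10, 0 of 42 passed against 0.515%, and 8 (19%) had an unadjusted p below 0.05 against 12% of all events. Between wild-type P10 and P30, 1 of 57 passed against 2.91%. These shares are close to those of all events.

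The event that passed was retention of a 2301-base intron of Spata13 (mm9, chr14:61372748-61375048). It was retained in 3.03% and 2.43% of transcripts at wild-type P10 and in 9.09%, 20% and 10% at P30 (limma adjusted p 0.0365). The P30 values rest on 30, 33 and 22 reads, and the call was lost when the wild-type P10 library 5 or 6 or the P30 library 1 or 2 was left out.

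A 336-base exon of Spata13 (mm9, chr14:61325551-61325886) missed the threshold but moved far with age. Its inclusion in wild type was 58.9% and 55.9% at P1, 22.8% and 21.1% at P10 and 36.0%, 44.0% and 56.1% at P30. Knockout inclusion was 72.0%, 32.2% and 61.1% at P1 and 22.6%, 18% and 15.4% at P10. The exon was thus lowest at the age when the gene was highest, without overlap with P1 in either genotype. The limma adjusted p was 0.170 between wild-type P1 and P10, 0.0658 between knockout P1 and P10 and 0.211 between P10 and P30.

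In Pvrl3, a 63-base exon (mm9, chr16:46437372-46437434) and an 840-base exon (chr16:46448242-46449081) had higher inclusion at P10 than at P1 in both genotypes. The means of the first were 4.3% ± 1.2 (SD, n = 2) and 15.4% ± 4.2 (n = 2) in wild type and 4.0% ± 1.9 (n = 3) and 13.5% ± 4.9 (n = 3) in the knockout. Those of the second were 77.5% ± 4.4 and 88.6% ± 2.3 in wild type and 74.6% ± 4.6 and 86.3% ± 2.5 in the knockout. None of these differences passed, with limma adjusted p-values of 0.246 and 0.154 for the first and 0.394 and 0.365 for the second.

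A 285-base exon of Mndal (mm9, chr1:175805707-175805991) had higher inclusion in the knockout libraries, without passing the test. Inclusion in the wild type was 67.1% and 79.5% at P1, 82.3% and 63.7% at P10 and 52.7%, 58.6% and 55.6% at P30. In the knockout it was 93.3%, 95.2% and 89.2% at P1 and 94.9%, 92.5% and 86.0% at P10. All 6 knockout libraries lay above all 7 wild-type libraries, and the limma adjusted p was 0.610 at P1 and 0.821 at P10. Reads at this exon can come from related copies of the cluster, and whether that bears on the values was not tested.

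**Figure D4:**
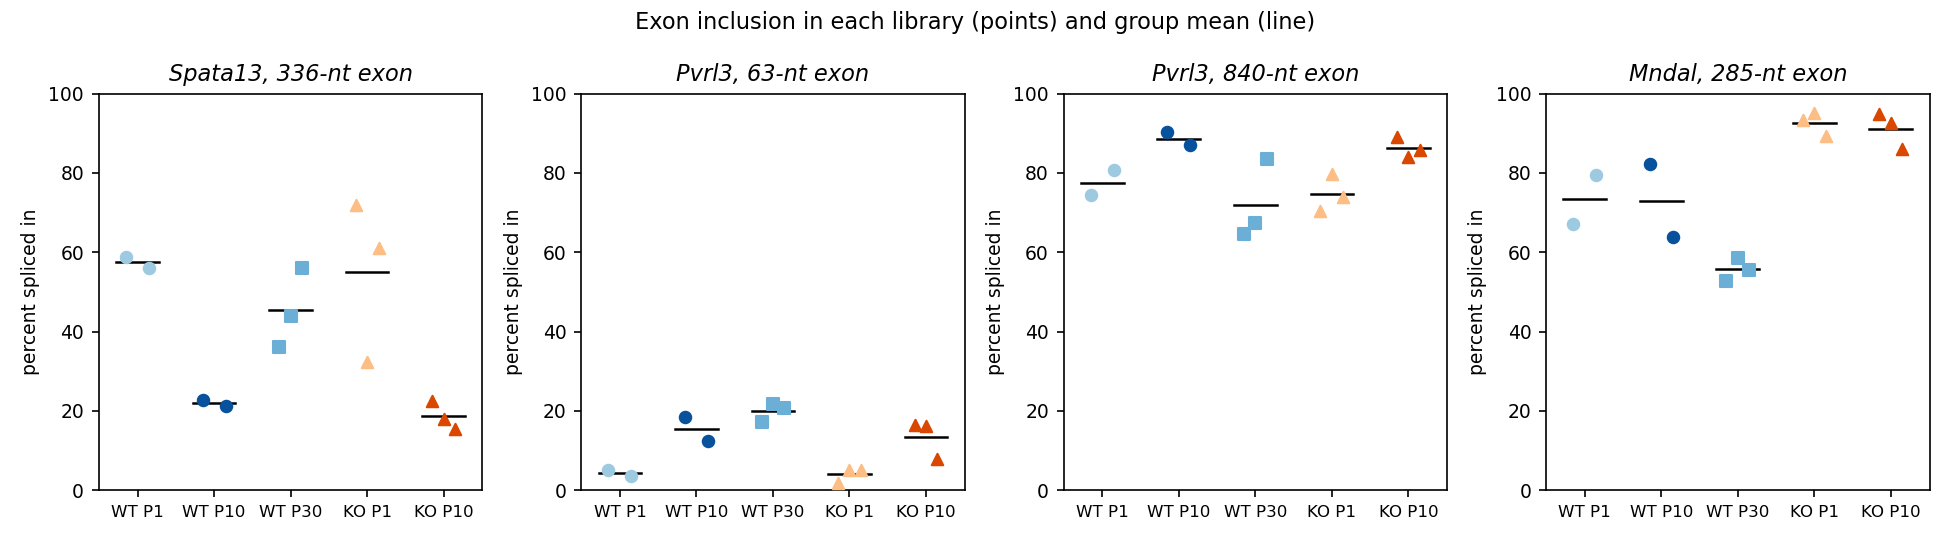
Percent inclusion of 4 exons of genes in the group, in each library (points) with group means (lines), on axes from 0 to 100. The 336-base exon of Spata13 is lowest at P10 in both genotypes, both Pvrl3 exons are higher at P10 than at P1, and the 285-base exon of Mndal lies between 86.0% and 95.2% in the 6 knockout libraries and at or below 82.3% in the wild type.

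Between knockout and wild type, limma called 0 of 68 tested events of the group at P10, where 0.0125% of all events passed, and 0 of 42 at P1, where 0.00277% did. At an unadjusted p below 0.05 there were 3 (4.41%) and 2 (4.76%) events, against 4.74% and 4.61% of all events. The Mndal exon was among them at both ages, and the counts are near these shares.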

How the data were processed

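RNA-seq libraries of mouse cerebellum (13, in 5 groups) were sequenced. Per the labels' protocols, total RNA went into a stranded mRNA kit used with changes. FastQC, Trimmomatic and the mm9 build are named in the submitters' processing notes, and the aligner is not given in the sources used here. The deposited expression table holds cRPKM, the authors' RPKM values corrected for mappability. The deposited splicing table holds PSI, which the authors gave as a percent, and a quality field with read counts per event, from which junction reads were summed over 159439 introns, so that a read spanning several introns counts more than once.

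Expression was tested with limma 3.58.1 (R 4.3.3) on log2(cRPKM + 1), in a fit of all 5 groups with 8 residual degrees of freedom, over the 14063 genes with a group mean of at least 1 cRPKM. Fold changes on this scale understate the change of low genes. Junction reads were tested as log2(depth-scaled reads + 0.5), with a group mean of at least 1 on the same scale, and splicing as log2 odds with 0.5 added, at least 10 reads and a mean PSI of 5 to 95. P-values were adjusted by Benjamini-Hochberg over all features, with calls at an adjusted p below 0.05. The reads behind cRPKM were worked out from the steps of the values. Of the low values checked, in genes whose length could be fitted, 90.4% to 96.4% per library came out whole. The lengths were fitted to give whole reads, so this share is not a separate check. The fits were tested on simulated data. Members and gene lists were chosen with earlier results of these data known. All 29 genes are named, with genes of the lists and the closest genes outside the rule as examples. Promoter windows are from RefSeq (GRCm38.p6). Alternatives were another pseudocount, no filter, quantile scaling, a fit of only the groups compared, junction reads, other thresholds and leaving out each library.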

Additional observations from a re-analysis of the deposited data

Results flagged for a closer look

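Spata13 had opposite signs of the knockout difference at the 2 ages. Every knockout library lay above every wild-type library at P1, with a log2 difference of 0.50, and every knockout library lay below every wild-type library at P10, with a difference of -0.61. The change in the difference was -1.11 on the log2 scale and is given without a test. In junction reads the differences were 0.15 at P1, where the libraries of the genotypes overlapped, and -0.43 at P10. The wild-type libraries in both differences were used to choose the gene. That choice favours a higher knockout at P1 and a lower knockout at P10, which are the signs seen here.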

How the results depend on the processing

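The number of genes in the group depends on its thresholds and on single libraries. It was 105 at a ratio of 1.5 and 10 at a ratio of 3. Of the 27 genes with junction reads, 19 had the 2-fold ratio of the rule there too. Leaving out each wild-type library gave 31 to 117, with 117 without P10 library 6, 55 without P10 library 5 and 66 without P1 library 9. Of the 29 genes, 22 were called between the knockout ages, 18 to 22 when a knockout library was left out and 15 in a fit of only the groups compared. Over all genes, the 1430 calls between the knockout ages became 366 in a fit of only the groups compared and 4701 in junction reads, with 886 to 1786 when a library was left out. The 569 calls between wild-type P1 and P10 became 3512 in junction reads, with 200 to 440 when a library was left out. The 2074 calls between wild-type P10 and P30 became 3864 in a fit of only the groups compared and 6227 in junction reads, with 1199 to 1439 when a library was left out. Between knockout and wild type, junction reads, chosen after seeing the data, gave 2 calls at P10 against 1, and 1 at P1 against 5. For splicing, the 1 event between wild-type P10 and P30 became 0 in a fit of only the groups compared and 0 to 1 when a library was left out, and the 0 events between the knockout ages became 0 to 1, with 1 without knockout P1 library 14. Of single genes, Mia1 changed sign without knockout P1 library 14, with leave-one-out log2 differences from -0.24 (limma adjusted p 0.777) to 1.84. The cause of these changes was not tested. No paired analysis was possible because the library numbers are not shared between groups.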
